A study of Homo sapiens with 6 samples.

Results

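The genes described here are 37 genes of homologous recombination and of the Fanconi anaemia pathway, followed in HCT116 cells after irinotecan. They were taken by gene name from a table of 30560 genes, and each of the 37 names had 1 row. HCT116 is a cell line from a human colorectal carcinoma, labelled wild type. Of its libraries, 3 came from cells given the solvent DMSO, and 3 from cells given irinotecan (CPT-11), a camptothecin prodrug, at 10 µM for 48 hours. All were bulk RNA sequencing libraries of 1 cell line, and no source used here says whether a group's libraries are separate cultures. The p-values therefore cover the spread between the libraries at hand, which may be technical. In bulk samples, fewer cells of a type and less RNA per cell cannot be told apart.

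Homologous recombination repairs broken DNA by copying an intact sister chromatid. The broken end is trimmed to single strands, BRCA1 and BRCA2 prepare them for pairing, helper proteins steer strand invasion, and helicases and nucleases take the joined molecules apart. The Fanconi anaemia pathway unhooks DNA strands that are linked together: a core complex with the ubiquitin ligase FANCL marks the FANCD2 and FANCI pair, and the nucleases and recombination proteins then act at the stalled fork. Drugs that trap topoisomerase I, as the active metabolite of irinotecan does, leave lesions that become broken ends when a replication fork meets them. Many of these genes are known to be transcribed mainly in S and G2 phases.

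Levels are given as normalized counts, which are reads on a gene divided by 1 size factor per library. The libraries held 15398464 to 18031195 reads on genes, and a count of 3 reads corresponds to 2.65 to 3.21 normalized counts, a limit that covers counting error only. Mitochondrial genes took 6.84% to 7.45% of reads in DMSO libraries and 9.70% to 10.9% after CPT-11. Of 9 measured epithelial markers, 8 averaged at least 10 normalized counts, among them EPCAM, KRT8, KRT18 and CDX2, and the list summed to 57565 to 66610 in DMSO and 104849 to 116651 after CPT-11. KRT8, KRT18 and KRT19 hold most of that sum and were higher in every CPT-11 library, while EPCAM and CLDN4 overlapped between groups and CLDN3 was lower (352 to 502 in DMSO, 269 to 296 after CPT-11). The leukocyte list had 1 of 6 measured markers at that level, ITGAM, and its summed level was 13.0 to 28.9 in DMSO and 67.3 to 69.9 after CPT-11. PTPRC, which defines leukocytes, stayed at or below 4.05 in every library, and no marker of this list was at 0 in all libraries. The fibroblast and endothelial list had COL1A1 and VWF at that level, of 7 measured, and summed to 556 to 672 and to 959 to 1278. The part of these lists in the results was not tested. CPT-11 library 1 was the lowest of the CPT-11 libraries for 22 of 37 members, against 41.2% of all tested genes.

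After CPT-11, 26 of the 37 genes fell, 1 rose and 10 did not pass the test. A gene is said to have fallen or risen at a Benjamini-Hochberg adjusted p below 0.05 in limma, on log2(normalized count + 1) and over all 16239 genes that averaged 10 normalized counts or more. By the same rule 25.1% of all tested genes were lower and 24.3% higher, or 49.4% in either direction. The median log2 fold change over the 37 genes was -0.77, against 0.01 over all tested genes, and single genes ran from -2.57 to 0.41. In each CPT-11 library the members' median was below the control mean, at -0.92, -0.66 and -0.71 in libraries 1, 2 and 3. Without CPT-11 library 1, 25 genes fell and 2 rose. In 16 of the 37 the fall was at least 1 log2 unit, a size that 7.43% of tested genes reached. The 3 CPT-11 values lay wholly below the 3 DMSO values for 28 members and wholly above for 1, where 28.8% and 27.8% of tested genes did so. All members averaged at least 10 normalized counts in both groups, so none entered through 1 group alone. Together they held 0.151% to 0.166% of reads in the DMSO libraries and 0.0873% to 0.0969% in the CPT-11 libraries, and they lie on 17 chromosomes.

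**Figure D1:**
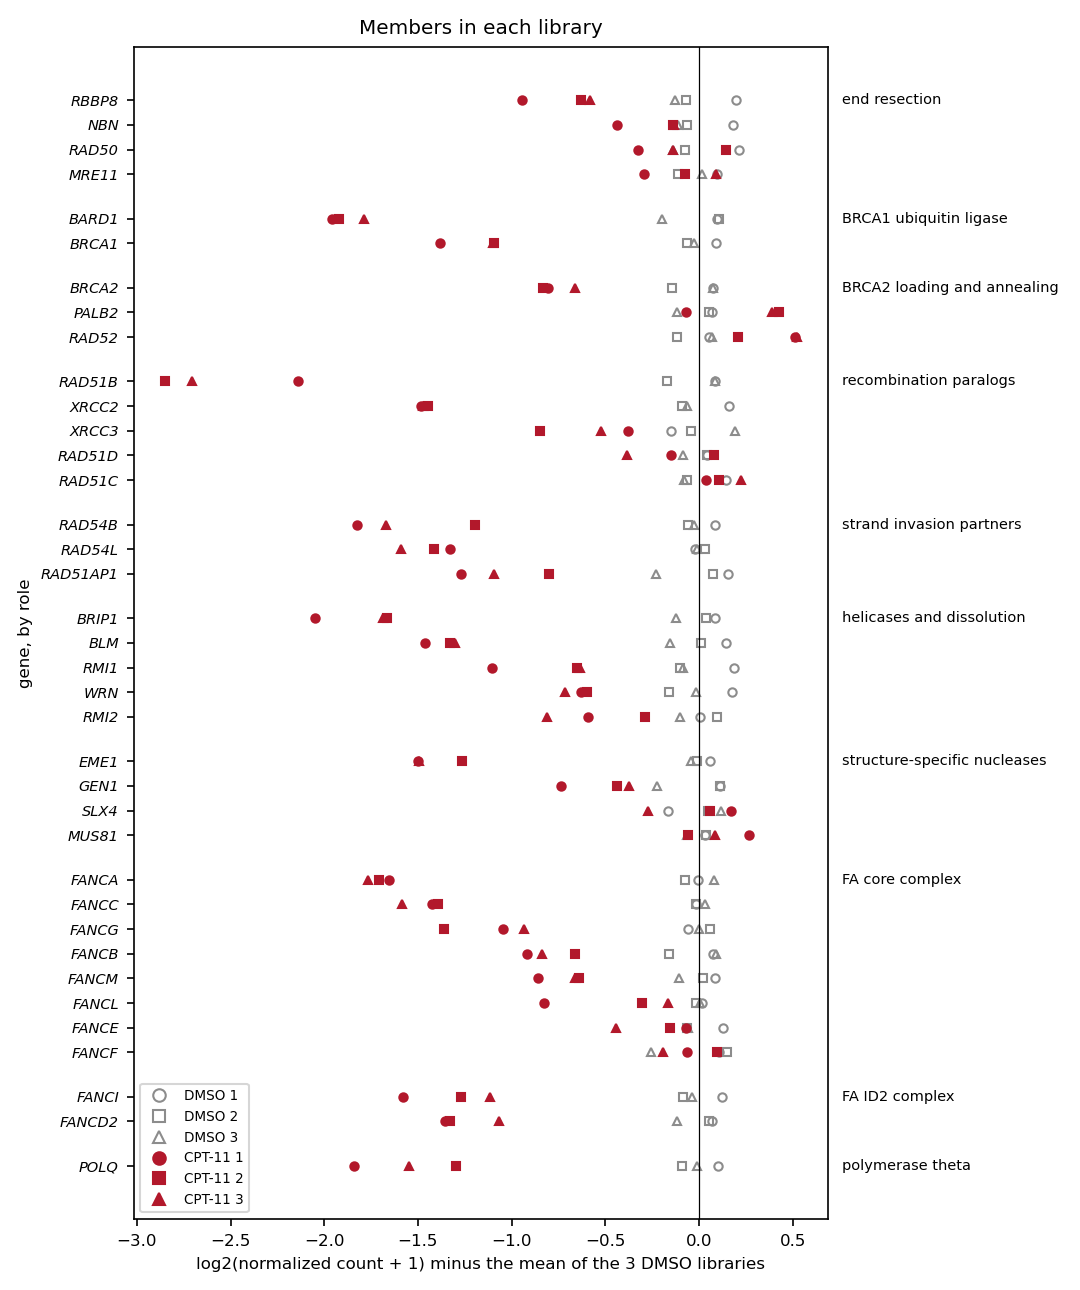
Each row is a gene, ordered by role, and each symbol is 1 library. The horizontal axis gives log2(normalized count + 1) minus the mean of the 3 DMSO libraries of that gene. Filled red symbols are CPT-11 libraries and open grey ones DMSO libraries; 28 genes have all red symbols left of all grey ones, and RAD52 has them all to the right.

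Promoter sequences of the members were searched for letters that cell cycle transcription factors are known to bind. RefSeq start sites (GRCh38.p14) gave 42 windows of 300 bases, 250 before and 50 after a start, for 32 of the 37 members; FANCI, NBN, RAD54B, RMI2 and WRN had none in the table used. Matches on both strands were sought for TTTCCCGC and TTTGGCGC, letters of E2F sites, for TTTGAA, letters of the cell cycle homology region, and for CCAAT, the letters bound by NF-Y; none of these contains another. TTTCCCGC was in 3 of 42 windows (7.14%), against 1.63% of all 35116 windows in the table and 2.33% of those of tested protein-coding genes. TTTGGCGC was in 0 of the members' windows, against 0.652% of all. TTTGAA was in 7.14% of the members' windows, against 15.2% of all and 10.3% of those of tested protein-coding genes. CCAAT was in 35.7%, against 34.6% and 34.4%. In the last 150 bases before the start, TTTCCCGC was in 1 of the 42 windows (2.38%), against 1.223% for tested protein-coding genes. That stretch ends at the start, so it leaves out the match in FANCD2, which runs across the start, and that in XRCC2, which follows it.

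The 3 windows with TTTCCCGC, and that of BRIP1 for its 3 CCAAT matches, are shown as examples from the 16 genes that fell by at least 1 log2 unit. CCAAT matches did not set BRIP1 apart: BLM, another of the 16, also held 3, and XRCC3, which is not among them, held 5. Each runs 5′ to 3′ on the gene's strand, and capitals mark a match to any of the searched letters, in either direction (GCGGGAAA, TTCAAA and ATTGG are the reverse complements).
FANCD2 chr3:10026187-10026486 (plus strand): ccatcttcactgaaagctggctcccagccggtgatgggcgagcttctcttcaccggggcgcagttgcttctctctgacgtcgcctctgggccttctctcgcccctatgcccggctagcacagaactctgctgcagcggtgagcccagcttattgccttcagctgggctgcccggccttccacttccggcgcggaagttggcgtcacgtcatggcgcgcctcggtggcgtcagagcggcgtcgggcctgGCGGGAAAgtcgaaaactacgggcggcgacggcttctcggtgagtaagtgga
XRCC2 chr7:152676092-152676391 (minus strand): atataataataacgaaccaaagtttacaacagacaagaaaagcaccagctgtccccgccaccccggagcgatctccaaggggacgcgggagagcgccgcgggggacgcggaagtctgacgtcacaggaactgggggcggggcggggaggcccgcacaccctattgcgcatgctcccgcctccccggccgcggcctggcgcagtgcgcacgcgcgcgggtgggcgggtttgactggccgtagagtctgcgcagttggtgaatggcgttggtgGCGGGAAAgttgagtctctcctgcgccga
FANCC chr9:95317660-95317959 (minus strand): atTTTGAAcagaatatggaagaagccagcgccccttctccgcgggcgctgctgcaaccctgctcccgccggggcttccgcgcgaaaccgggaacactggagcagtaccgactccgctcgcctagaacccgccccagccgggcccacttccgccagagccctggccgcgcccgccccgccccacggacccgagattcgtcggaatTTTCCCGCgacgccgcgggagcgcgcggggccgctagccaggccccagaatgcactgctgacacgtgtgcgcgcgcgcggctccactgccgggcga
BRIP1 chr17:61863479-61863778 (minus strand): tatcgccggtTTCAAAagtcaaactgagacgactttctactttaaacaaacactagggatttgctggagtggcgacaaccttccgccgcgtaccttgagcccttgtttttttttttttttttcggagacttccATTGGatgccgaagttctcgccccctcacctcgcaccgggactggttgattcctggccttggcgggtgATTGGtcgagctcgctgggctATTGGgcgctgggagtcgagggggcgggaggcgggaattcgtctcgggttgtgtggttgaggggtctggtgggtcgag

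Of the complex that first meets a broken end, no gene passed the test, and the factor that works with it, RBBP8, fell. MRE11, the nuclease of the complex, had 732, 633 and 692 normalized counts in DMSO libraries 1, 2 and 3, and 557, 649 and 729.9 in CPT-11 libraries 1, 2 and 3. The groups overlapped, and the log2 fold change was -0.094 (SE 0.12, adjusted p = 0.529). RAD50, its coiled-coil partner, had -0.11 on the log2 scale (adjusted p = 0.609), but 79.7% of its exonic bases are shared with an annotated gene on the same strand, so its count is uncertain. Of the 37 members 9 share more than 10% of their exonic bases with another annotated gene, and 15 share none. NBN, which couples the complex to the checkpoint kinase ATM, had 2093, 1766 and 1706 in DMSO and 1365, 1678 and 1682 after CPT-11. The CPT-11 values lay below the DMSO values by a small margin, and the log2 fold change of -0.24 (SE 0.11) did not pass (adjusted p = 0.0738). RBBP8, which encodes CtIP, the factor that starts end trimming with this complex, had 2600.0, 2157 and 2072 in DMSO and 1175, 1464 and 1510.2 after CPT-11. It fell by 0.72 on the log2 scale (SE 0.11, adjusted p = 3.76e-05). For its exonic length RBBP8 was the most abundant member in DMSO cells, at 447 ± 55.7 normalized counts per kb of exon (SD, n = 3), against a median of 101 over the members.

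BRCA1 and its ubiquitin ligase partner BARD1 both fell. BRCA1 (chromosome 17, 43044295 to 43170245 on GRCh38) had 1124, 1009 and 1033 normalized counts in DMSO and 403, 492 and 491 after CPT-11. The highest CPT-11 value was below every DMSO value, and the log2 fold change was -1.19 (SE 0.11, adjusted p = 8.41e-08). BARD1 (chromosome 2, 214725646 to 214809711) went from 649, 655 and 529.9 to 156, 160.1 and 176. It was 3.73-fold lower, with the second largest fall of the 37 (log2 fold change -1.89, SE 0.13, adjusted p = 2.13e-09). The number of BARD1 reads per BRCA1 read went from 0.580 ± 0.068 to 0.357 ± 0.031 (SD, n = 3), with no overlap between groups.

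The genes that act on the trimmed single strands went different ways. BRCA2, a mediator of recombination that binds single-stranded DNA (chromosome 13, 32315474 to 32400266), had 764, 655 and 762 in DMSO and 414, 406 and 459 after CPT-11, and fell by 0.77 on the log2 scale (SE 0.11, adjusted p = 1.75e-05). PALB2, the bridge between BRCA1 and BRCA2, had 395, 392 and 347 in DMSO and 359.7, 507 and 494 after CPT-11. CPT-11 library 1 lay among the DMSO values, the others above them. Its log2 fold change was 0.25 (SE 0.14, adjusted p = 0.14), and without CPT-11 library 1 it was 0.41 with adjusted p = 0.0104. RAD52, a protein that anneals single strands (chromosome 12, 912077 to 990053), was the only member of the 37 that rose. It had 333, 296 and 337 in DMSO and 458, 372 and 462 after CPT-11, with every CPT-11 value above every DMSO value (log2 fold change 0.41, SE 0.13, adjusted p = 0.0107). The call was lost without DMSO library 2 (adjusted p = 0.0530) and without CPT-11 library 3 (adjusted p = 0.0521). Over all libraries edgeR and DESeq2 also called it higher.

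The group of RAD51B, RAD51C, RAD51D, XRCC2 and XRCC3, related proteins that work in shared complexes during recombination, held the largest fall and also genes that did not pass. RAD51B (chromosome 14, 67819779 to 68730218) went from 115, 96.3 and 115 normalized counts to 23.8, 14.2 and 15.8. The highest CPT-11 value was 23.8 and the lowest DMSO value 96.3, and the log2 fold change was -2.57 (SE 0.26, adjusted p = 2.63e-07). It was also the member with the lowest level for its length, at 14.5 ± 1.4 normalized counts per kb of exon in DMSO (SD, n = 3), and had as few as 14 reads in a library. XRCC2 had 816, 685 and 698 in DMSO and 260.1, 267 and 263 after CPT-11, with all CPT-11 values well below (-1.47 on the log2 scale, SE 0.11, adjusted p = 1.15e-08). XRCC3 had -0.58 on the log2 scale (SE 0.14, adjusted p = 0.00161), but 76.7% of its exonic bases overlap KLC1 on the other strand. The sources used here do not say whether reads were counted by strand, so reads of the pair cannot be told apart. RAD51C, which joins either complex of paralogs, had 729, 629 and 624 in DMSO and 675, 709 and 771 after CPT-11, with overlapping groups (log2 fold change 0.12, adjusted p = 0.361). RAD51D, the partner of XRCC2, had -0.15 on the log2 scale (SE 0.14, adjusted p = 0.376).

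All 3 genes of strand invasion fell. RAD54L, a motor protein that drives strand invasion, had 430.0, 445 and 433 in DMSO and 173, 163 and 144 after CPT-11 (log2 fold change -1.44, SE 0.13, adjusted p = 5.55e-08). RAD54B, its relative, had 159, 143 and 147 in DMSO and 41.4, 64.8 and 46.3 after CPT-11 (log2 fold change -1.56, SE 0.20), and shares 59.1% of its exonic bases with FSBP. For neither gene did a CPT-11 value reach a DMSO value. RAD54L shares 25.1% of its exonic bases with LRRC41 on the other strand, which had a log2 fold change of 0.47. RAD51AP1, which stimulates strand invasion, had -1.06 on the log2 scale (SE 0.14, adjusted p = 6.24e-06).

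The helicases and the complex that dissolves double Holliday junctions fell, 5 of 5. BRIP1, a helicase that binds BRCA1 and is also the Fanconi protein FANCJ (chromosome 17, 61681266 to 61863521), had 1005, 974 and 872 in DMSO and 228, 299 and 294 after CPT-11. The log2 fold change was -1.80 (SE 0.12, adjusted p = 2.35e-09). BLM, the helicase lost in Bloom syndrome, had 810.0, 740.4 and 659 in DMSO and 265, 292 and 297 after CPT-11 (log2 fold change -1.37, SE 0.12, adjusted p = 3.46e-08). In both helicases all CPT-11 values were below all DMSO values. The BLM partners RMI1 and RMI2 had log2 fold changes of -0.80 (SE 0.13) and -0.56 (SE 0.16). WRN, the helicase lost in Werner syndrome, had -0.65 on the log2 scale (SE 0.11, adjusted p = 7.48e-05).

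Among the nucleases that cut joined molecules, EME1 and GEN1 fell, and MUS81 and SLX4 did not pass. EME1, a regulatory subunit that MUS81 needs, had 437, 416 and 407 in DMSO and 148, 174 and 148 after CPT-11 (log2 fold change -1.42, SE 0.13, adjusted p = 8.11e-08). MUS81, the catalytic subunit, had 393, 395 and 368 in DMSO and 464, 369.8 and 408 after CPT-11, with overlapping groups (log2 fold change 0.10, SE 0.12, adjusted p = 0.524). Reads of EME1 per read of MUS81 were 1.11, 1.05 and 1.11 in the DMSO libraries and 0.319, 0.471 and 0.363 in the CPT-11 libraries. EME1 shares 16.4% of its exonic bases with LRRC59 on the other strand. MUS81 shares 14.1%, with CFL1 on the other strand as the largest partner. LRRC59 and CFL1 had 26979 and 50566 reads over all libraries, against 1739 for EME1 and 2431 for MUS81, which limits the ratio. GEN1, which cuts Holliday junctions on its own, had 780.0, 782 and 619.5 in DMSO and 434, 534 and 557 after CPT-11 (log2 fold change -0.52, SE 0.12, adjusted p = 0.00229). EME1 and GEN1 did not overlap between groups. SLX4, the scaffold that holds several nucleases, had 384, 445 and 467 in DMSO and 484, 449 and 357 after CPT-11 (log2 fold change -0.014, adjusted p = 0.938).

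Of the 8 Fanconi core complex genes, 6 fell. FANCA (chromosome 16, 89737549 to 89816657) had 1640.0, 1559.9 and 1742 in DMSO and 522, 503 and 483 after CPT-11, and was 3.28-fold lower (log2 fold change -1.71, SE 0.10, adjusted p = 2.21e-10). On the other strand it shares 23.6% of its exonic bases with ZNF276, which had a log2 fold change of 0.83. FANCC (chromosome 9, 95099054 to 95426796) had 513, 515 and 532 in DMSO and 193, 198 and 172 after CPT-11 (log2 fold change -1.47, SE 0.12, adjusted p = 2.3e-08). FANCG, which binds FANCA, had 668, 725 and 696 in DMSO and 337, 271 and 364 after CPT-11 (log2 fold change -1.11, SE 0.12, adjusted p = 8.29e-07). All 3 had their CPT-11 values wholly below their DMSO values. FANCB, a partner of FANCL, had -0.80 on the log2 scale (SE 0.15) and FANCM, the DNA translocase that anchors the complex, -0.72 (SE 0.12), and both fell. The ligase gene FANCL had 541, 529 and 537 in DMSO and 302, 433 and 477 after CPT-11. CPT-11 library 1 was well below the other CPT-11 libraries, and the log2 fold change of -0.43 (adjusted p = 0.0182) became -0.24 without it (adjusted p = 0.0985); the call was also lost without DMSO library 3 (adjusted p = 0.0511). FANCE and FANCF, which form a unit with FANCC, did not pass (-0.22 and -0.053, adjusted p = 0.176 and 0.815). FANCF had 153, 157 and 119 in DMSO and 136, 152 and 124 after CPT-11, with overlapping groups. FANCE had 361, 316 and 317 in DMSO and 315, 297 and 243 after CPT-11, and its highest CPT-11 value lay just below its lowest DMSO value.

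Both targets of the core complex fell. FANCD2 (chromosome 3, 10026414 to 10101930) had 1367, 1356 and 1201 in DMSO and 509, 519.7 and 622 after CPT-11 (log2 fold change -1.25, SE 0.11, adjusted p = 3.66e-08). FANCI (chromosome 15, 89243949 to 89317261) had 2579, 2232 and 2302 in DMSO and 790.0, 979 and 1093 after CPT-11 (log2 fold change -1.32, SE 0.11, adjusted p = 3.36e-08). FANCI reads per FANCD2 read were 1.82 ± 0.15 in DMSO and 1.73 ± 0.17 after CPT-11 (SD, n = 3), and the groups overlapped. POLQ, the polymerase of an alternative end joining route that serves cells without recombination (chromosome 3, 121431427 to 121546641), had 742, 649 and 685 in DMSO and 192, 281 and 236 after CPT-11 (log2 fold change -1.56, SE 0.14, adjusted p = 4.29e-08). None of these 3 genes overlapped between groups.

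Ratios between genes whose proteins bind each other do not depend on how libraries are scaled. They are ratios of reads not divided by gene length, so only their change between groups can be read. For 8 such pairs, chosen after the values were seen and so described with no test, the CPT-11 libraries lay apart from the DMSO libraries in 7. The share of all gene pairs that lie apart was not computed. Of single tested genes, 28.8% lay wholly below and 27.8% wholly above. Some pairs, such as EME1 and MUS81, join a gene that fell to one that did not pass, which by itself moves the ratio. BRCA2 reads per PALB2 read went from 1.93 ± 0.26 to 0.961 ± 0.177, and XRCC2 per RAD51D from 2.37 ± 0.21 to 0.957 ± 0.149 (SD, n = 3). BLM per RMI1 went from 1.09 ± 0.08 to 0.737 ± 0.096, and XRCC3 per RAD51C from 0.809 ± 0.155 to 0.495 ± 0.096 (SD, n = 3), with the overlap of XRCC3 and KLC1 given above. FANCG per FANCA went the other way, from 0.424 ± 0.036 to 0.646 ± 0.108 (SD, n = 3). Genes of a pair can differ in genomic span, and the ratios were not corrected for it. With the trend of change on span removed, as described below, BLM and RMI1 had log2 fold changes of -1.18 and -0.92. FANCG and FANCA had -1.28 and -1.60. Both pairs then lay closer together than as measured. XRCC3 and RAD51C (-0.72 and 0.09) and BARD1 and BRCA1 (-1.76 and -0.92) lay further apart.

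**Figure D2:**
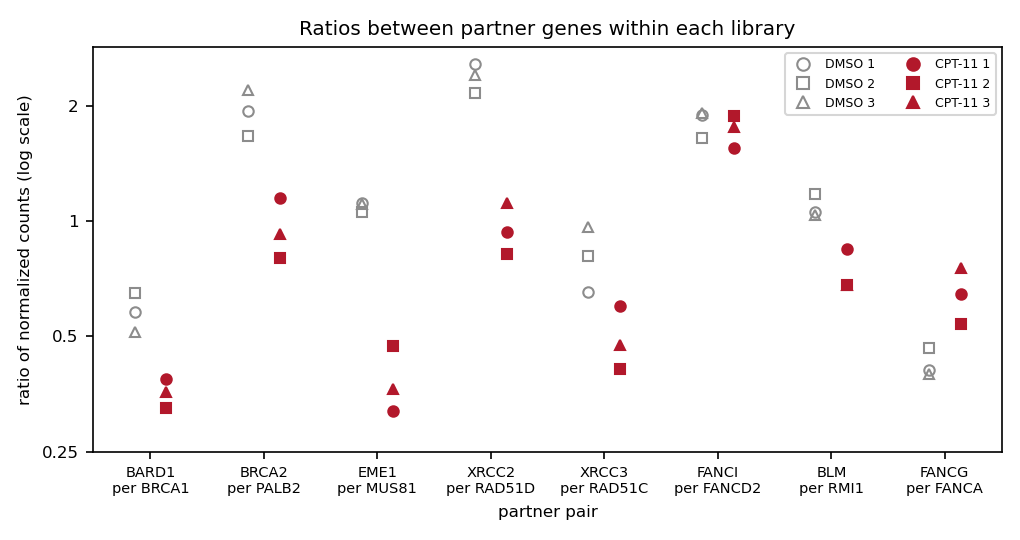
Each column is a pair of genes whose proteins bind each other, and each symbol is the ratio of their normalized counts in 1 library, on a log scale (grey, DMSO; red, CPT-11). The ratio of FANCI to FANCD2 overlaps between groups, while EME1 per MUS81 lies at 1.05 to 1.11 in DMSO and at 0.319 to 0.471 after CPT-11.

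Long genes fell more than short ones in these cells, so the genomic span of the members, gene end minus gene start, was set beside their change. The members spanned 2.95 kb (FANCF) to 910 kb (RAD51B), with a median of 73.3 kb against 32.8 kb for all 13215 tested protein-coding genes. Over the 37 members Spearman's correlation between span and log2 fold change was -0.38, and it was -0.28 without RAD51B and FANCC, the members with the longest spans. Over all tested protein-coding genes it was -0.32. These are descriptions over genes measured in the same libraries, and carry no p. With exonic length in place of span, the correlation over the members was -0.13.

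Within each class of span the members' median log2 fold change was below that of the other protein-coding genes. For 3 members under 10 kb the median was -1.11, against 0.17 for 2500 other genes, and for 6 members of 10 to 30 kb it was -0.40 against 0.15. The 19 members of 30 to 100 kb had a median of -0.72 against -0.0063, and 12 of them fell (63.2%, against 26.5% of the other genes). The 7 members of 100 to 300 kb all fell, with a median of -1.19 against -0.34, where 52.6% of the other genes fell. Of 300 kb or more there were only RAD51B and FANCC, at -2.57 and -1.47, against a median of -1.08 over 450 other genes.

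**Figure D3:**
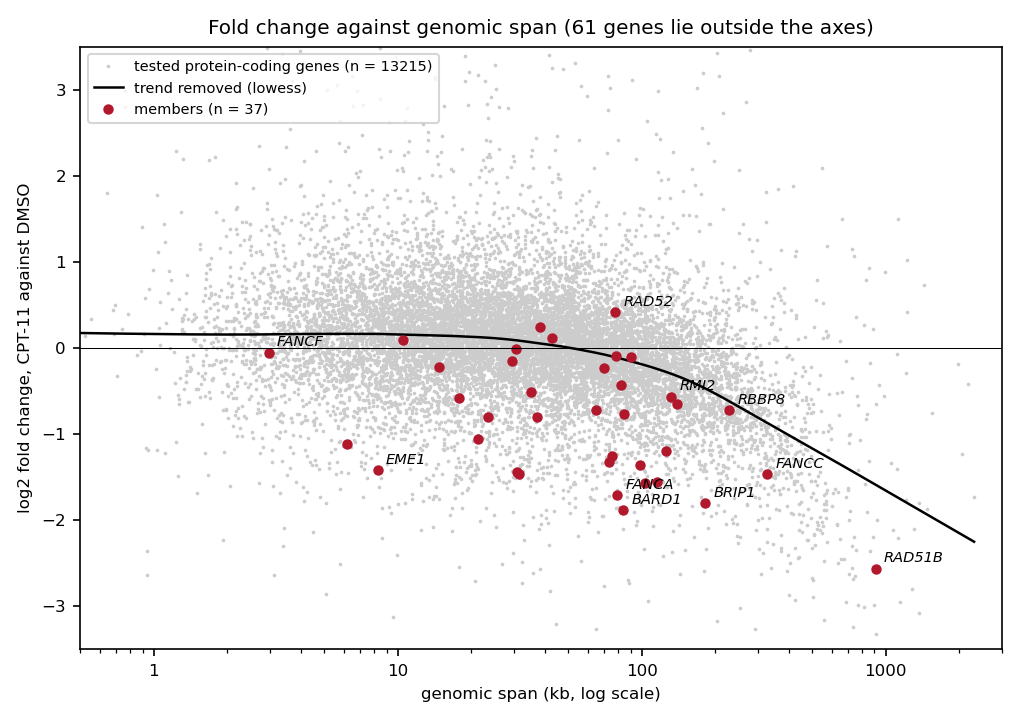
The horizontal axis gives genomic span in kb on a log scale and the vertical axis the log2 fold change of CPT-11 against DMSO. Grey points are tested protein-coding genes, of which 61 lie outside the axes, red points the 37 members, and the line is the lowess trend over genes that are not members; 32 members lie below the line.

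When the span trend was removed from each library before the test, 24 members fell and 1 rose, where 23.2% of all tested genes were then lower and 23.6% higher. The trend, fitted over protein-coding genes other than the members, was worth 0.17 at the shortest spans among members and -1.59 at RAD51B. The members' median went from -0.77 to -0.66, and the correlation with span to -0.026. Of the 26 genes that had fallen 23 passed in both. RAD51B kept -0.98 of its -2.57 (adjusted p = 0.007), and FANCC -0.59 of -1.47 (adjusted p = 0.000672). RBBP8, which spans 228 kb, went from -0.72 to -0.10 and did not pass (adjusted p = 0.411). RMI2 (132 kb) and FANCL (82.1 kb) did not pass either, at -0.27 and -0.31 (adjusted p = 0.18 and 0.0649). The annotated RBBP8 gene starts at 22798261, but its RefSeq start windows begin at 22933078 and 22933617, well inside that span. FANCC, on the minus strand, reaches to 95426796, with RefSeq windows at 95317205 to 95317504 and 95317660 to 95317959. Counted from those starts, both spans and the trend removed would be smaller, which was not tested. BRCA1, at 126 kb, had -0.92, and BRIP1, at 182 kb, -1.33. WRN, at 140 kb, went from -0.65 to -0.32 (adjusted p = 0.0136). In the short genes the trend ran the other way: EME1 (8.26 kb) went from -1.42 to -1.58, FANCG (6.18 kb) from -1.11 to -1.28, and FANCE (14.7 kb) passed only after removal (-0.37, adjusted p = 0.026). RAD52 had 0.52 (adjusted p = 0.00248).

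**Figure D4:**
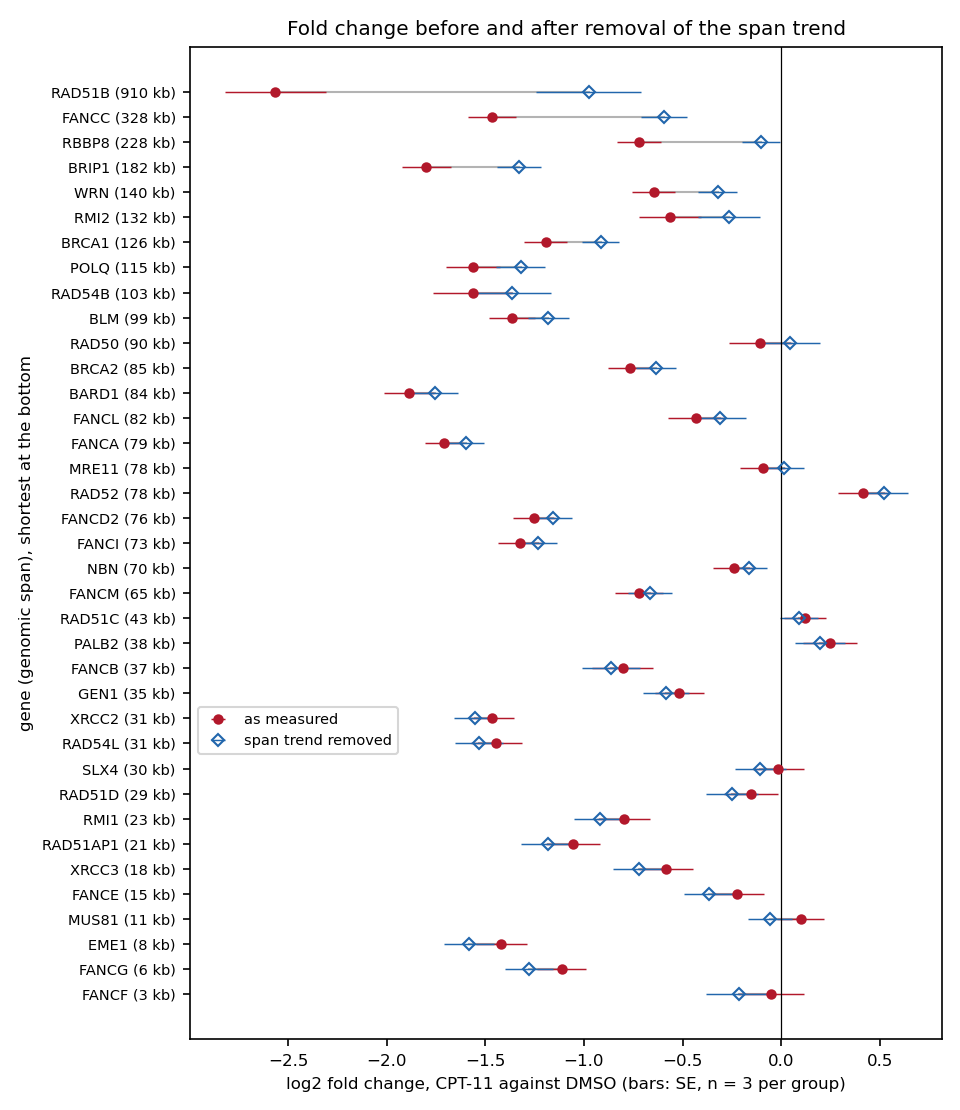
Genes are ordered by genomic span with the shortest at the bottom. Red circles give the log2 fold change as measured and open blue diamonds the value after the span trend was removed, with bars for the SE (3 libraries a group); RAD51B, FANCC and RBBP8 at the top move the most, and RBBP8 ends at -0.10.

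Other genes of recombination and crosslink repair, from a written list, were also tested. Of 63 with a row 59 were tested, and their median was -0.29 on the log2 scale. Of the 59, 28 fell, 14 rose and 17 did not pass, where 25.1% of all tested genes were lower and 24.3% higher. The most lowered, among those averaging 50 normalized counts or more, were SPIDR, a scaffold protein that binds BLM, NUCKS1, a chromatin protein that binds DNA, and BABAM2, a subunit of the BRCA1-A complex. SPIDR, which spans 476 kb, went from 1028, 1027 and 1003 to 218, 254 and 264 (log2 fold change -2.06, SE 0.11, adjusted p = 1.42e-10). Without the span trend it had -0.92 on that scale. NUCKS1 had -1.51 on the log2 scale (SE 0.10), and BABAM2, of 449 kb, -1.46 (SE 0.15) and, without the span trend, -0.36 (adjusted p = 0.050002), which did not pass. BABAM2 shares 13.1% of its exonic bases with MRPL33. The most raised were NABP1, EME2 and FAAP20. NABP1, a single-strand DNA binding protein, went from 1467, 1359 and 1512 to 3338, 3497 and 3710.3 (log2 fold change 1.28, SE 0.09, adjusted p = 2.33e-09). EME2, the other subunit that can pair with MUS81, went from 475, 524 and 538 to 1257, 909 and 941 (log2 fold change 0.99985, SE 0.12, adjusted p = 2.82e-06), opposite in sign to EME1. It shares 30.004% of its exonic bases with SPSB3 on the other strand. FAAP20, a small partner of FANCA, had 0.57 on the log2 scale (SE 0.14).

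Of 46 genes of replication licensing and the fork, 1 of which (RECQL4) is also in the list above, 42 fell and 1 rose, with a median of -1.11, below the members' -0.77. Of 21 tested genes of non-homologous end joining, which rejoins ends without a template, 10 fell and 4 rose, with a median of -0.34. Over all tested genes 25.1% were lower and 24.3% higher. The differences between these lists were not tested.

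**Figure D5:**
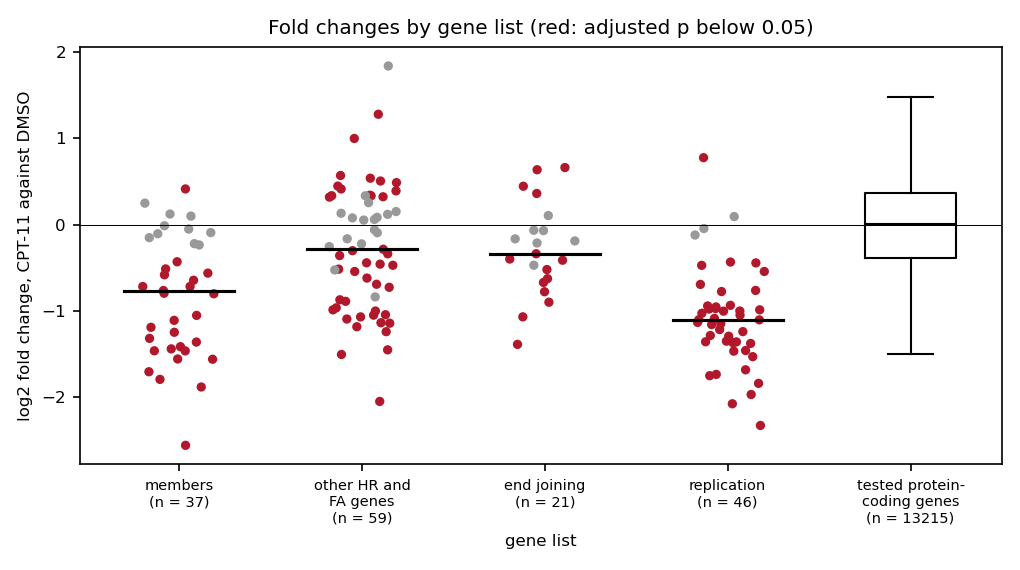
Each point is a gene and the vertical axis its log2 fold change, CPT-11 against DMSO; red points have an adjusted p below 0.05 and black lines are medians. The box gives the quartiles of all tested protein-coding genes, with whiskers to the last value within 1.5 times the box height. The replication genes lie lowest (median -1.11), then the members (-0.77), end joining (-0.34) and the other recombination and crosslink repair genes (-0.29).

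In the promoter window of FANCD2 the TTTCCCGC match begins 2 bases before the start, in XRCC2 21 bases after it and in FANCC 46 bases before it. The 3 genes had log2 fold changes of -1.25, -1.47 and -1.47. POLQ and BRIP1 held TTTGAA without the E2F letters and had -1.56 and -1.80. The 27 members with none of TTTCCCGC, TTTGGCGC and TTTGAA had a median of -0.72 and 17 of them fell, BARD1, FANCA and BRCA1 among them. Only these exact letters were searched. A window without them may still hold a variant of such a site, which was not tested.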

How the data were processed

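RNA sequencing of 3 DMSO and 3 CPT-11 libraries was analysed, grouped by the labels' treatment. GRCh38, edgeR 3.24.3, DESeq2 1.22.1, StringTie 1.3.4d, featureCounts 1.6.2, HISAT2 2.1.0 and fastp 0.19.3 are named, without roles, in the submitters' processing notes. The authors deposited a normalized signal per gene and library; 100% of the values came out as whole reads, to within 0.001, when divided by the library's smallest step, so reads could be recovered. In the authors' deposited table the log2 fold changes and adjusted p-values give 26 members lower and 1 higher at an adjusted p below 0.05. Gene starts and ends equal those of GENCODE release 29, and the gene length its exon union. The sources used here do not say how ambiguous reads were treated.

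Genes averaging at least 10 normalized counts entered limma 3.58.1 (R 4.3.3) with a mean-variance trend, on log2(value + 1), without a block, and p-values were adjusted over all 16239. For the span trend, a lowess curve (fraction 0.3) on log10 span was fitted to each library's log2 ratio to the gene's mean and subtracted. edgeR 4.0.16 and DESeq2 1.42.0 on recovered reads were alternatives. The limma fits were also run on simulated data, as a check of the code only. There all genes had the same spread beyond counting error and few were changed, unlike in these data. Values per library are given for BRCA1, BRCA2, the 2 most changed members of each role, the 3 longest and 3 shortest genes, and members that rose; those of other members were chosen after their values were seen. From the list of other repair genes the 3 most raised and 3 most lowered called genes are named. Members and lists were chosen with earlier results of these data known.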

Additional observations from a re-analysis of the deposited data

How the results depend on the processing

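Over 18 alternatives (pseudocounts of 0.5 and 5, no filter or a mean of at least 50, scalings, tools, block, span trend, each library left out) 23 to 26 members fell, and 23 of the 27 called members kept their call in every one. The count of members that rose, 1, became 2 (PALB2 added) when libraries were scaled without mitochondrial genes. There FANCL was lost too (-0.35, adjusted p = 0.0538). With a library left out it ran from 0 to 2: by limma it was 0 without DMSO library 2 or CPT-11 library 3, where 1 member (RAD52) had an unadjusted p below 0.05, and 2 without CPT-11 library 1. Spearman's correlation with span over the members was -0.026 with the span trend removed, a trend fitted without the members. In the last 150 bases before the start, TTTGAA was in 0% of the members' windows, against 4.45% for tested protein-coding genes. TTTCCCGC, alone or with TTTGGCGC, was in 2.38%, which is 1 window, against 1.223% and 1.74%. That stretch leaves out matches that cross or follow the start, as in FANCD2 and XRCC2.

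Members that did not pass changed sign in some alternatives, and none of these values passed. With the span trend removed, with or without the block, MRE11 had 0.014, RAD50 0.047 and MUS81 -0.058. Scaling by library total gave SLX4 0.020, edgeR gave it 0.0056, and scaling without mitochondrial genes gave SLX4 0.069 and FANCF 0.030. Leaving out a library gave MRE11 -0.19 to 0.0080, RAD50 -0.23 to 0.0025, SLX4 -0.11 to 0.11 and FANCF -0.18 to 0.021; the cause was not tested.

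The libraries share replicate numbers, but same-numbered libraries did not deviate together (correlations of -0.23, -0.0056 and -0.10), so the numbers were not taken as pairs. With the replicate block 26 members fell and 1 rose, and 23 fell with the block and the span trend removed together, an alternative added after seeing the data. Reads per member and library were as low as 14, in RAD51B, so its fold change is the least precise (SE 0.26). Overlapping genes limit RAD50, XRCC3 and RAD54B most. RAD54L, FANCA, FANCL, EME1, MUS81 and FANCF share 11.3% to 25.1% of their exonic bases. Over the 28 members that share at most 10% of their exonic bases 20 fell and 1 rose.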
